A study of Mus musculus with 8 samples.

Results

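The genes described here were 38 mouse genes of the interferon response and of MHC class I antigen presentation, found in the count table by their symbols. The choice was made with earlier results of these data known. All 38 were among the 29442 genes of the count table, and all 38 were among the 27612 genes with at least 1 count that entered the test. By role, 6 encode sensor and transcription factors of the pathway, 19 are antiviral or regulatory genes, 6 encode interferon-induced GTPases and 7 belong to MHC class I antigen presentation. They were compared in the hippocampus of female mice given dehydroepiandrosterone (DHEA), a precursor of androgens, or its carrier, sesame oil.

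Interferons are secreted proteins that bind receptors at the cell surface, and the receptor-bound Janus kinases then phosphorylate STAT proteins, which enter the nucleus and switch on a set of interferon-induced genes. Many of these genes restrict viruses, while others tag, degrade or signal. The same pathway raises the machinery that cuts proteins into peptides and presents them on MHC class I molecules, which in the brain are carried mostly by glia, vessels and some neurons.

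RNA-seq of polyadenylated RNA was available for 4 libraries labelled DHEA (3, 4, 7 and 11) and 4 labelled sesame oil (5, 9, 10 and 16), numbered as in the labels. By the study's methods, the mice were C57BL/6 J females aged 6 to 8 weeks, and no transgene is named there. They were injected under the skin for 21 days with 30 mg/kg/day of DHEA or with sesame oil alone. The methods give the tissue as the ventral hippocampus, and the labels as hippocampus. Neither batches nor cages nor pairs are given in the labels, so that p-values measure the spread between these 8 samples. The table of changed genes published with the study carries, for each of its genes, the reverse sign of the fold change computed with these labels, and none of the 38 members is in it. The study reports that qRT-PCR of selected genes in further hippocampal samples ran the same way as its own sequencing results. Whether the labels or the signs of that table are reversed was not tested. Groups are called by their labels here, and every direction rests on them.

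Depth did not overlap between the groups, with total counts of at least 35748416 in each library labelled DHEA (highest 38038361) and at most 35418297 in each labelled sesame oil (lowest 31483772). The 13 protein-coding mitochondrial genes took 7.87%, 9.34%, 7.58% and 7.29% of the counts in libraries 3, 4, 7 and 11, and 6.37%, 6.87%, 7.23% and 6.99% in libraries 5, 9, 10 and 16. A trend of expression with GC content also separated the groups, as a library's deviation from the gene means correlated with GC content at -0.11 to -0.0047 over 15594 genes in the libraries labelled DHEA and at 0.056 to 0.14 in those labelled sesame oil. The members had a median GC content of 49.2%, near the 49.7% of these genes. Depth and the mitochondrial share cannot be told apart from the groups here, and their part in the differences below was not tested. The GC trend was removed in an alternative fit, in which the members' median log2 fold change was 0.22.

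The most abundant of 10 hippocampal marker genes was the neuronal factor gene Neurod6, which other forebrain neurons also express, at 105 fragments per kilobase and per 1000000 counted fragments (FPKM). Defining leukocyte genes were at or near 0. The T cell genes Cd3e, Cd3d and Cd8a had at most 1 count in any library, and the B cell gene Ms4a1 at most 4. S100a9, a neutrophil gene, was the most abundant leukocyte marker at 1.80 FPKM.

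All members were detectable, with mean counts from 26.9 to 3320 per library and at least 6 counts in each library. B2m, the invariant light chain of MHC class I, stood at 110 FPKM and made up 50.9% of the members' summed FPKM. Next in order came the interferon-induced gene Ifi27 at 18.2 FPKM and the classical heavy chain genes H2-D1 at 17.3 FPKM and H2-K1 at 10.8 FPKM. These were the 4 members at or above 10 FPKM, while 12 members were under 1 FPKM. Among the latter were Ifit1 at 0.892 FPKM, Rsad2 at 0.438 FPKM and Nlrc5, the MHC class I transactivator, at 0.109 FPKM.

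As a group, the members stood higher in the libraries labelled DHEA. Of the 38, 33 had a fold change above 1, against 51.2% of all tested genes and 53.5% of the 16813 genes whose mean count was 10 or more. Their median log2 fold change was 0.23, beside 0.0079 over all tested genes and 0.015 over these 16813, and the values ran from -0.23 for Sp100 to 0.70 for Iigp1. By edgeR's quasi-likelihood test the unadjusted p was under 0.05 for 7 members in the higher direction (18.4% of members) and for 0 in the lower. Over all tested genes 4.82% passed as higher and 4.49% as lower, and among the 16813 these shares were 6.85% and 6.26%. The 7 were B2m, Eif2ak2, Iigp1, H2-K1, Parp14, Gbp7 and H2-D1.

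These were small differences, and none passed a stricter call. A p under 0.05 together with a fold change of 2, as the study required, was met by 0 members and by 1.6% of all tested genes. After Benjamini-Hochberg adjustment of edgeR's quasi-likelihood test over all genes, 0 members and 0% of all genes were called. The smallest adjusted p of that test was 0.245 among the members, for B2m, and 0.0569 over all genes. DESeq2 called 153 genes after adjustment (0.554% of those tested), of which 0 were members. It gave 8 members with an unadjusted p under 0.05 as higher, adding Igtp to the 7. Over all tested genes DESeq2 passed 3.93% as higher and 4.29% as lower at that threshold.

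Libraries of the 2 groups did not overlap for 7 members in the higher direction and 0 in the lower. Shares of 2.42% and 2.62% of all tested genes separated the groups in these directions, or 3.63% and 3.53% of the 16813. The members that separated the groups were B2m, Eif2ak2, Parp14, Gbp7, Igtp, Ifit2 and Ifih1. Complete separation always gives a two-sided exact permutation p of 0.0286, the smallest that 4 against 4 libraries allow. That value therefore adds nothing to the separation itself. For Iigp1, H2-K1 and H2-D1, whose groups overlapped, the same permutation test gave p = 0.0857, 0.143 and 0.114.

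**Figure D1:**
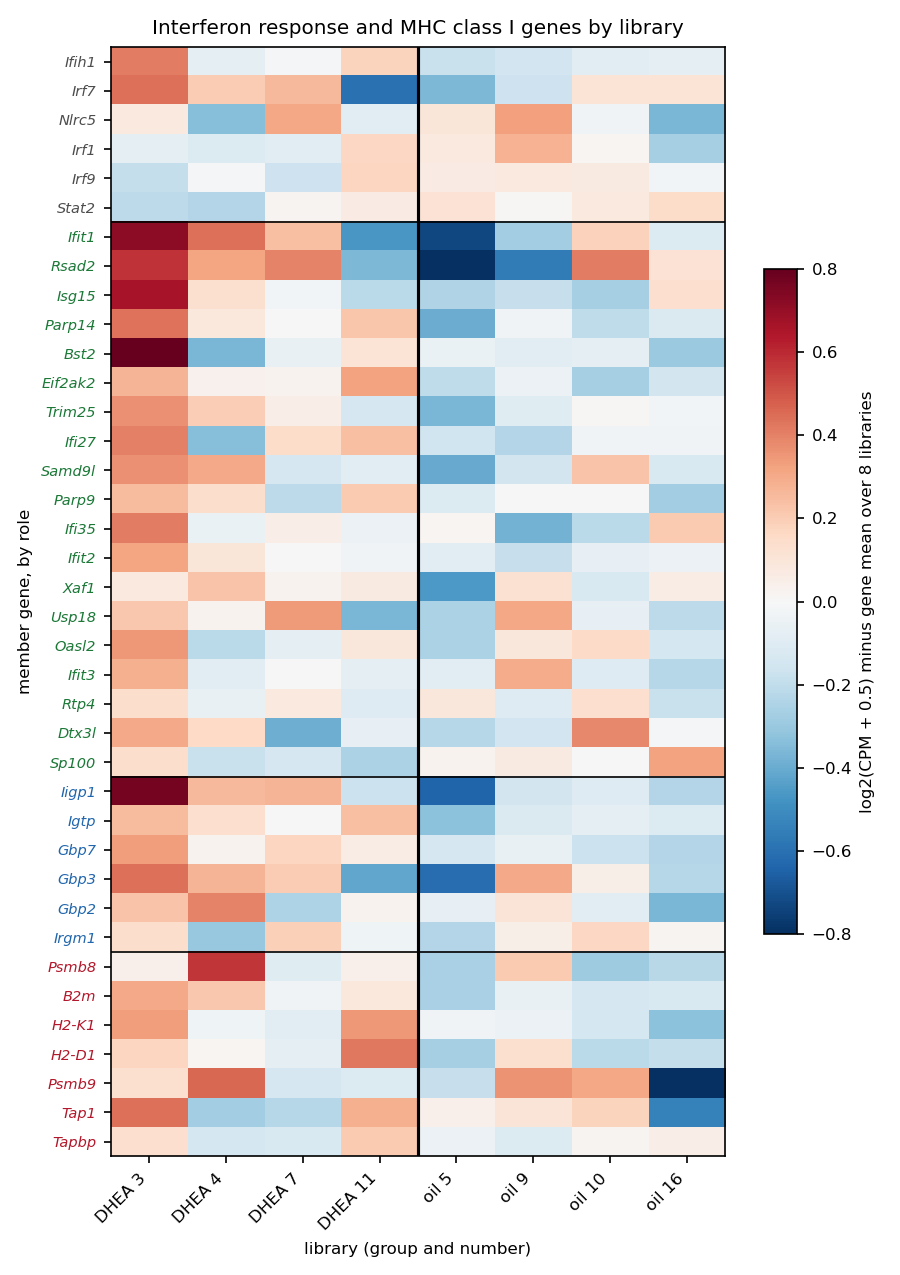
Expression of the 38 members (rows, grouped by role and ordered by fold change) in the 8 libraries (columns, DHEA on the left), as log2(CPM + 0.5) minus the gene's mean over the libraries. Colours saturate at the ends of the scale, and library 3 was the highest library for 21 of the 38 members.

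Library 3, labelled DHEA, carried part of the group difference. It was the highest of the 8 libraries for 21 members, where library 11 was highest for 5, library 4 for 4 and library 7 for 2. It lay above the gene's own mean for 35 members, and libraries 4, 7 and 11 did so for 22, 19 and 20. In the libraries labelled sesame oil these counts were 8, 16, 17 and 9 for libraries 5, 9, 10 and 16. Library 5 was lowest for 13 members and library 16 for 10. Without library 3, the median log2 fold change of the members was 0.15, 27 of them had a fold change above 1, and 3 had an unadjusted p under 0.05, namely B2m, Eif2ak2 and H2-D1. Without library 16, 4 members reached that threshold, and without library 4 it was 10. The shares of all tested genes that passed it as higher in these fits were 3.84% without library 3, 3.52% without library 16 and 3.97% without library 4. Groups did not overlap for 7 members as higher and 1 as lower without library 3, beside 3.53% and 3.73% of all tested genes.

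**Figure D2:**
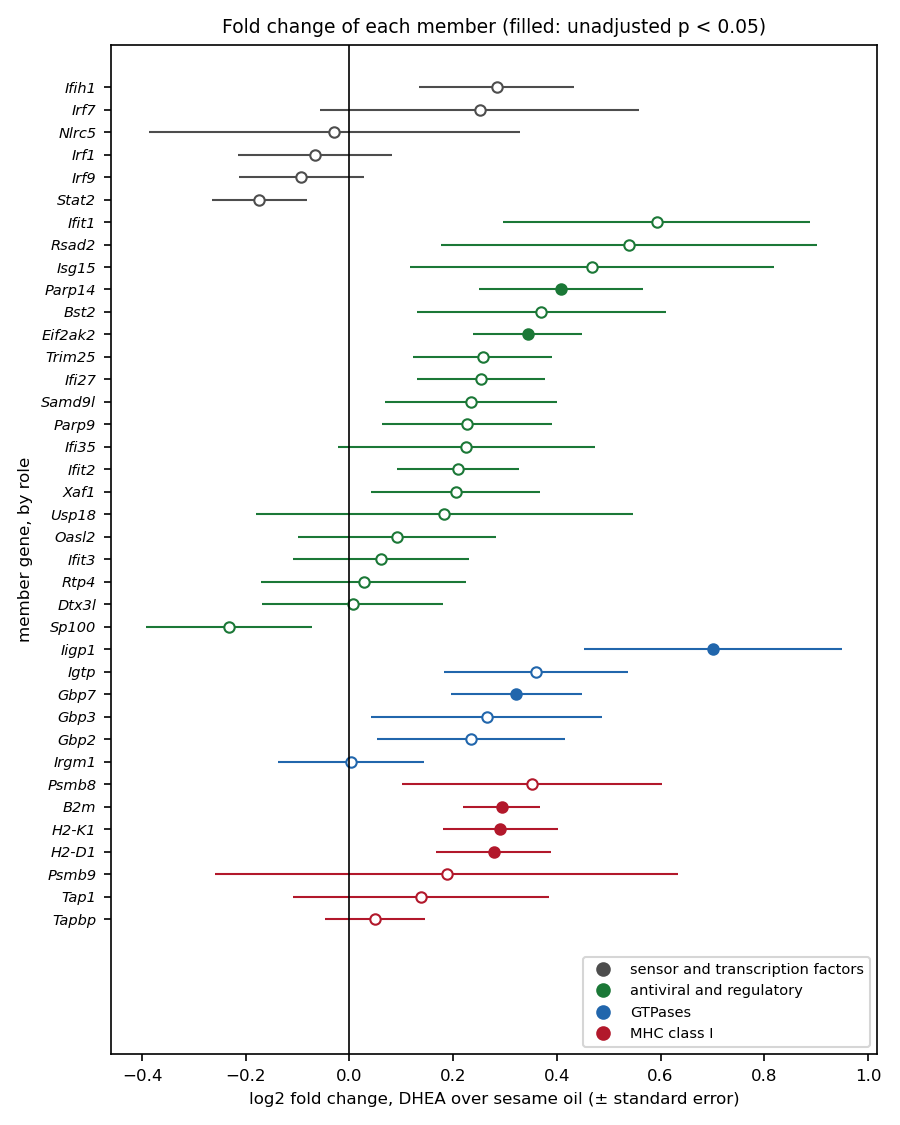
Log2 fold change of each member, libraries labelled DHEA over those labelled sesame oil, with the standard error from edgeR (horizontal bars, 4 libraries per group), grouped by role. Filled points mark the 7 members with an unadjusted p under 0.05, all to the right of 0, and 4 of the 6 sensor and transcription factor genes lie to the left of 0.

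In MHC class I antigen presentation 3 of 7 genes passed the unadjusted threshold, and all 7 had a fold change above 1, with a median log2 value of 0.28. B2m, needed for every MHC class I complex to reach the cell surface, was at 116, 109, 91.9 and 99.7 counts per 1000000 (CPM, scaled by TMM factors) in libraries 3, 4, 7 and 11, labelled DHEA, and at 78.4, 90.1, 85.5 and 86.1 CPM in libraries 5, 9, 10 and 16, labelled sesame oil. The lowest library labelled DHEA lay just above the highest labelled sesame oil. Its mean was 104 ± 10.6 CPM (SD, n = 4) against 85.0 ± 4.83 CPM, a difference of 22.6%, with a log2 fold change of 0.29 (standard error 0.07, unadjusted p = 0.000955 and adjusted p = 0.245, edgeR's quasi-likelihood test). B2m kept an unadjusted p under 0.05 in each of the 8 fits that left out 1 library. Without library 7, its adjusted p in the same test was 0.0432, in a fit that called 93 genes (0.341% of those tested) after adjustment. Over the other such fits the adjusted p ran up to 0.727.

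H2-K1 encodes one of the classical heavy chains that bind peptide. Its values were 29.6, 22.8, 21.9 and 29.8 CPM in libraries 3, 4, 7 and 11, and 22.9, 22.6, 21.1 and 18.5 CPM in libraries 5, 9, 10 and 16. Libraries 3 and 11 stood above the rest, and libraries 4 and 7 lay within the range of the sesame oil group. Its log2 fold change was 0.29 (standard error 0.11, unadjusted p = 0.0171, adjusted p = 0.416, edgeR's quasi-likelihood test), and the unadjusted p was 0.0650 without library 3, 0.0691 without library 11 and 0.0744 without library 16 in that test, each with edgeR. H2-D1, the other classical heavy chain, was at 33.6, 30.2, 28.2 and 40.1 CPM against 24.6, 32.6, 25.6 and 26.1 CPM in the same order of libraries. Library 11 was the highest, and library 9, labelled sesame oil, reached above libraries 4 and 7. Its log2 fold change was 0.28 (standard error 0.11, unadjusted p = 0.0212, adjusted p = 0.439, edgeR's quasi-likelihood test), and edgeR's unadjusted p was 0.112 without library 11, where the log2 fold change was 0.17, 0.0693 without library 5, 0.0584 without library 10 and 0.0584 without library 16. The heavy chain genes of the H2 locus are close copies, and reads shared between them may have been lost or split when counted.

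The other 4 members of this role make, carry or load the peptide. Psmb8 and Psmb9, subunits of the immunoproteasome that cuts proteins into peptides, had log2 fold changes of 0.35 and 0.19 with standard errors of 0.25 and 0.45. Tap1, a subunit of the peptide transporter, had 0.14 (standard error 0.25), and Tapbp, the tapasin that bridges transporter and heavy chain, had 0.05 (standard error 0.10). None of them passed the unadjusted threshold of the edgeR test, and their groups overlapped.

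**Figure D3:**
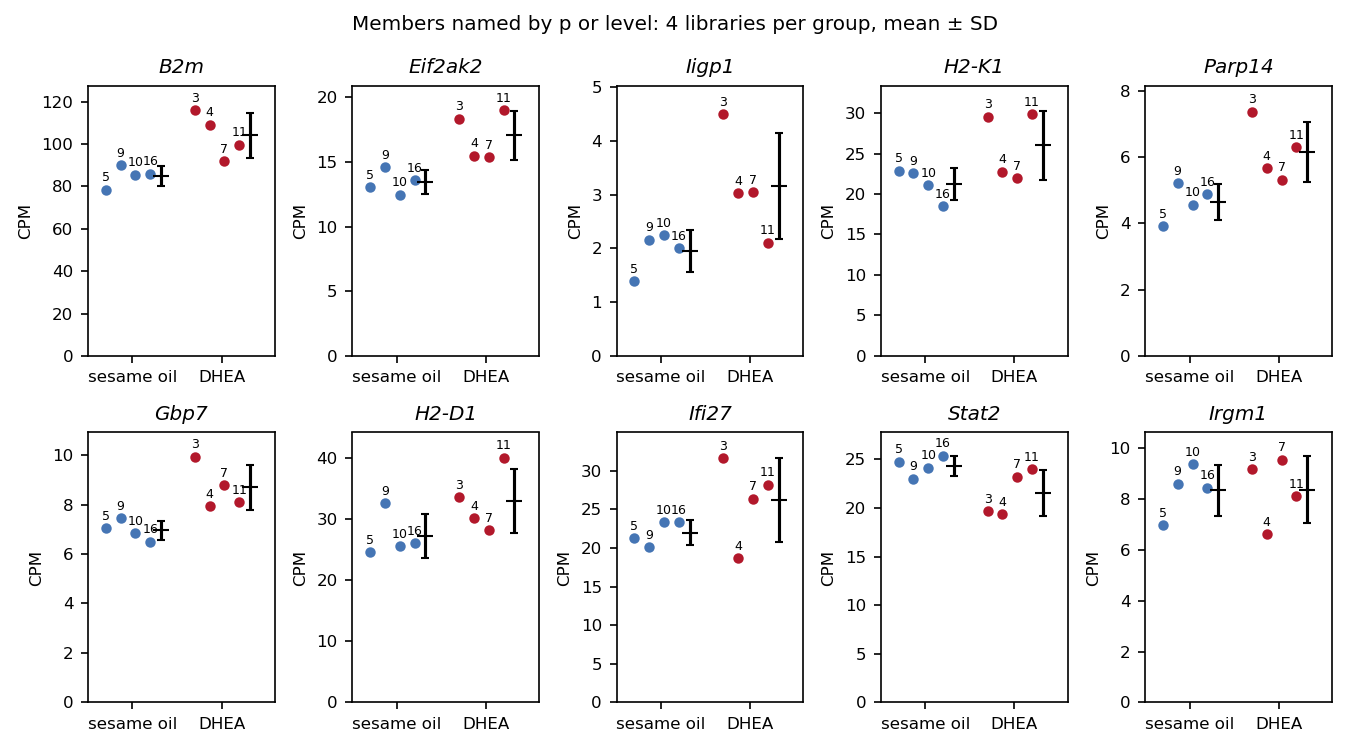
Normalized counts (CPM, vertical axis from 0) of the 7 members with an unadjusted p under 0.05 and of Ifi27, Stat2 and Irgm1, the most abundant members of the other roles. Points are single libraries marked with their number, and bars give the mean and SD of 4 libraries. B2m, Eif2ak2, Parp14 and Gbp7 do not overlap between groups, and Irgm1 has nearly equal means in both.

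Of the 6 interferon-induced GTPases, which attack the membranes around intracellular pathogens, all had a fold change above 1, with a median log2 value of 0.29, and 2 reached an unadjusted p under 0.05. Iigp1 had the log2 fold change farthest from 0 among the members. It was at 4.50, 3.03, 3.05 and 2.11 CPM in libraries 3, 4, 7 and 11, and at 1.39, 2.16, 2.24 and 1.999 CPM in libraries 5, 9, 10 and 16. Library 3 was far above the others, and library 11 fell inside the sesame oil range. Iigp1 had a log2 fold change of 0.70 (standard error 0.25, unadjusted p = 0.0115, adjusted p = 0.385, edgeR's quasi-likelihood test), which was 0.48 without library 3 (unadjusted p = 0.0725, edgeR).

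Gbp7, a guanylate-binding protein gene, was at 9.93, 7.94, 8.79 and 8.10 CPM in the libraries labelled DHEA and at 7.03, 7.44, 6.84 and 6.51 CPM in those labelled sesame oil, in the same order. The groups did not overlap, and the log2 fold change of Gbp7 was 0.32 (standard error 0.13, unadjusted p = 0.0203, adjusted p = 0.433, edgeR's quasi-likelihood test), and edgeR's unadjusted p was 0.0864 without library 3 and 0.0594 without library 16. Igtp, also called Irgm3, did not overlap either, at 3.36 to 4.09 CPM against 2.57 to 3.17 CPM, but its unadjusted p was 0.0574 in edgeR. Irgm1, the most abundant GTPase of the list at 3.02 FPKM and a regulator of the other IRG proteins, was at 9.18, 6.62, 9.54 and 8.10 CPM in libraries 3, 4, 7 and 11, and at 6.97, 8.60, 9.36 and 8.44 CPM in libraries 5, 9, 10 and 16. The groups overlapped, with nearly equal means of 8.36 ± 1.31 and 8.34 ± 0.999 CPM (SD, n = 4), and the sign of its fold change turned with other normalizations. Gbp2 and Gbp3, further guanylate-binding protein genes, had log2 fold changes of 0.23 and 0.26 (standard errors 0.18 and 0.22), and their groups overlapped.

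Antiviral and regulatory genes formed the largest role, with 18 of 19 fold changes above 1, a median log2 value of 0.23 and 2 genes past the unadjusted threshold. Eif2ak2, known as PKR, a kinase that stops translation when it binds double-stranded RNA, was at 18.3, 15.5, 15.4 and 19.0 CPM in libraries 3, 4, 7 and 11, and at 13.1, 14.6, 12.5 and 13.6 CPM in libraries 5, 9, 10 and 16. All libraries labelled DHEA were above all labelled sesame oil, with 3 and 11 the highest. The log2 fold change of Eif2ak2 was 0.34 (standard error 0.11, unadjusted p = 0.0043, adjusted p = 0.303, edgeR's quasi-likelihood test). Leaving out any single library kept it from 0.29 to 0.39, with an unadjusted p of at most 0.0187 in edgeR.

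Parp14, an ADP-ribosyltransferase, was at 7.38, 5.67, 5.33 and 6.30 CPM in the libraries labelled DHEA and at 3.92, 5.22, 4.57 and 4.89 CPM in those labelled sesame oil. The groups were apart by a narrow margin between libraries 7 and 9. For Parp14 the log2 fold change was 0.41 (standard error 0.16, unadjusted p = 0.0190, adjusted p = 0.424, edgeR's quasi-likelihood test), and edgeR's unadjusted p was 0.0841 without library 3 and 0.0669 without library 5. Parp9 and Dtx3l, which encode a complex that modifies ubiquitin and histones and has been linked to Parp14, had log2 fold changes of 0.23 and 0.01.

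Fold changes near the upper end of this role came with wide spreads between libraries. Ifit1, which binds foreign RNA caps, was at 3.98, 3.20, 2.72 and 1.48 CPM in libraries 3, 4, 7 and 11, and at 1.15, 1.75, 2.61 and 2.03 CPM in libraries 5, 9, 10 and 16. Rsad2, the gene of the antiviral enzyme viperin, had 2.56, 2.05, 2.19 and 1.10 CPM against 0.604, 0.889, 2.22 and 1.71 CPM in the same order. Isg15, a ubiquitin-like modifier, had 1.72, 1.04, 0.888 and 0.712 CPM against 0.694, 0.741, 0.673 and 1.05 CPM. In all 3 genes library 3 was the highest and library 11 the lowest of those labelled DHEA, and the groups overlapped. Their log2 fold changes were 0.59, 0.54 and 0.47, with edgeR's unadjusted p of 0.0609, 0.155 and 0.198.

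Ifit2, a relative of Ifit1, separated the groups, at 12.4, 10.6, 9.85 and 9.66 CPM in the libraries labelled DHEA against 9.21, 8.60, 9.39 and 9.52 CPM. The log2 value was 0.21 (standard error 0.12, unadjusted p = 0.0907, edgeR). Ifit3 of the same family had 0.06 (standard error 0.17), and its reads may be shared with a close copy.

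Ifi27 was at 31.6, 18.7, 26.4 and 28.2 CPM in the libraries labelled DHEA and at 21.3, 20.1, 23.3 and 23.3 CPM in those labelled sesame oil. Library 4 was the lowest of all 8 and the other 3 labelled DHEA were the highest. Its log2 fold change of 0.25 had an unadjusted p of 0.0555 in edgeR's quasi-likelihood test, which was 0.000582 without library 4 and 0.229 without library 3, where the log2 fold change was 0.15. Bst2, or tetherin, which holds budding viruses at the membrane, was at 6.54 CPM in library 3 and between 2.58 and 3.78 CPM in the other 7. Usp18, which removes Isg15 from proteins and damps the receptor, had a log2 fold change of 0.18 (standard error 0.36). Trim25, Samd9l, Ifi35, Xaf1, Oasl2 and Rtp4 had log2 fold changes from 0.03 (Rtp4) to 0.26 (Trim25), and all of their groups overlapped. Sp100, a nuclear body protein gene, was the only member of this role with a fold change below 1, at a log2 value of -0.23 (standard error 0.16, unadjusted p = 0.164, edgeR).

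Sensor and transcription factor genes did not share the direction of the other roles. Their median log2 fold change was -0.05, with 2 of 6 above 0, and 0 of 6 passed the unadjusted threshold of the edgeR test. Stat2, a subunit of the factor that type I interferon activates, was at 19.7, 19.4, 23.2 and 23.95 CPM in libraries 3, 4, 7 and 11, and at 24.8, 23.004, 24.1 and 25.4 CPM in libraries 5, 9, 10 and 16. Libraries 3 and 4 were the lowest, although library 3 was the highest for 21 members. The log2 fold change of Stat2 was -0.17 (standard error 0.09, unadjusted p = 0.0744, edgeR), and edgeR's unadjusted p was 0.0440 without library 7, 0.0279 without library 11, 0.195 without library 3 and 0.171 without library 4.

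Irf9, the DNA-binding partner of Stat2, and Irf1, induced mainly by type II interferon, had log2 fold changes of -0.09 and -0.07 (standard errors 0.12 and 0.15). Nlrc5 had -0.03 (standard error 0.36). Irf7, which amplifies type I interferon, had 0.25 (standard error 0.31), with library 3 the highest and library 11 the lowest. Ifih1, the sensor MDA5 for long double-stranded RNA, was the other gene of this role with a fold change above 1. Ifih1 was at 7.86, 5.50, 5.74 and 6.62 CPM against 5.07, 5.16, 5.41 and 5.49 CPM. Its groups were apart by the small step between library 4 and library 16, and its log2 fold change of 0.28 had an unadjusted p of 0.0741 in edgeR. Whether the roles differed from each other was not tested.

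Promoters were examined for the motif through which this pathway acts. RefSeq windows on the GRCm38.p6 assembly, from 250 bases before to 50 after a gene's start, were given for 31 of the 38 members. Parp14, Parp9, Usp18, Ifi27, Nlrc5, Rtp4 and Iigp1 had none. The core of the interferon-stimulated response element, searched as GAAANNGAAA on both strands, was present in 14 of the 31 (45.2%), beside 3.99% of 27025 genes and 3.44% of all 32851 windows. The gamma-activated site, searched as TTCNNNGAA, which reads the same on both strands, was present in 8 (25.8%), beside 9.55% of genes and 8.3% of windows, and 4 members held both motifs. By role, the first motif was present in 5 of 5 GTPases, 6 of 14 antiviral and regulatory genes, 2 of 5 sensor and transcription factor genes and 1 of 7 MHC class I genes, the last being B2m.

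The following windows show this core in members with groups that did not overlap (B2m, Gbp7 and Igtp) and in 2 classical interferon-induced genes with groups that did (Ifit1 and Isg15). Each is 100 bases, 5′ to 3′ on the strand of the gene, and capitals mark the matched core, or overlapping cores joined. B2m is on the forward strand at chr2:122147502-122147601, Gbp7 on the forward strand at chr3:142530236-142530335, Igtp on the forward strand at chr11:58199456-58199555, Ifit1 on the forward strand at chr19:34640749-34640848 and Isg15 on the reverse strand at chr4:156200837-156200936.
B2m: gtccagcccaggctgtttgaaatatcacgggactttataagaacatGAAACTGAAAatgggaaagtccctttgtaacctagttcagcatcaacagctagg
Gbp7: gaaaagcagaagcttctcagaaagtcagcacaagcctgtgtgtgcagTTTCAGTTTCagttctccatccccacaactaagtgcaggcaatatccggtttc
Igtp: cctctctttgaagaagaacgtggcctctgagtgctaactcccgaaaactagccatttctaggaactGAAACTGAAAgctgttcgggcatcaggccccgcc
Ifit1: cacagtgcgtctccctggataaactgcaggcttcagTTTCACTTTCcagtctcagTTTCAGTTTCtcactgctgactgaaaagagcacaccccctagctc
Isg15: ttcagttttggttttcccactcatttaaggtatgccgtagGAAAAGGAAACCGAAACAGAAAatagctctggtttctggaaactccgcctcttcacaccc
The core appears once in B2m, Gbp7 and Igtp, in 2 copies a few bases apart in Ifit1 and in 3 overlapping copies in Isg15. In Eif2ak2 and Ifih1 the match began 18 and 32 bases after the start. Ifit2, whose groups did not overlap either, did not hold the core in its windows. Of the 5 members with an unadjusted p under 0.05 and a window, 3 held the core (B2m, Eif2ak2 and Gbp7), and H2-K1 and H2-D1 did not within this window. Tap1 and Psmb9 lie head to head on opposite strands and shared 275 bases of their windows. A match describes these letters and does not show that a factor binds there.

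Other genes of the pathway were taken from lists of 115 genes, of which 99 were tested. Among them edgeR's quasi-likelihood test gave 11 as higher and 3 as lower at an unadjusted p under 0.05 (11.1% as higher, beside 4.82% of all genes as higher and 4.49% as lower), and their median log2 fold change was 0.15. The count as higher was 4 without library 3, 7 without library 5 and 18 without library 7. Of all tested genes, 3.84%, 3.31% and 6.51% passed as higher in these fits, in the same order. Of the interferon genes themselves, Ifng and Ifnz were in the table, with at most 1 count in a library. Ifnb1 and the other listed interferon genes were not analysed here. Of 17 receptor and JAK-STAT genes, 0 passed in either direction, with log2 fold changes of -0.01 for Ifnar1 and 0.16 for Ifnar2, the type I receptor chains. Nucleic acid sensors and adaptors also gave 0 of 15.

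Among 41 other interferon-induced genes, 7 passed as higher (17.1%) and 2 as lower, beside 4.82% and 4.49% of all tested genes. Ifi47, another IRG GTPase, was at 1.56, 0.898, 1.14 and 1.56 CPM in libraries 3, 4, 7 and 11, and at 0.573, 0.8004, 0.645 and 0.381 CPM in libraries 5, 9, 10 and 16. Its groups did not overlap and its log2 fold change was 1.10 (standard error 0.34, unadjusted p = 0.00501, adjusted p = 0.314, edgeR's quasi-likelihood test). Trim21, an antibody receptor of the cytosol, and Trim30a had log2 fold changes of 0.55 and 0.53, also without overlap. Cmpk2, a mitochondrial nucleotide kinase, had 0.23 and Ifitm3, which blocks viral fusion, 0.34. Without library 5, the unadjusted p of edgeR's quasi-likelihood test was 0.0529 for Trim21, 0.0671 for Cmpk2 and 0.0785 for Ifitm3. Without library 3 it was 0.0508 for Cmpk2, 0.0526 for Trim30a and 0.111 for Ifitm3. Without library 11 it was 0.0539 for Trim30a and 0.0974 for Ifitm3, without library 16 it was 0.0518 for Trim30a, and without library 9 it was 0.0694 for Ifitm3. The call of each of these 4 genes was thus lost in at least 1 such fit. The 2 genes in the other direction were Pml, the organizer of the nuclear bodies that hold Sp100, with a log2 fold change of -0.37, and Adar, an RNA editing enzyme, with -0.16. Both separated the groups without overlap, and Adar had an unadjusted p of 0.0531 in edgeR without library 5.

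Of the 17 further genes of MHC class I handling, 14 had a fold change above 1, 1 passed the unadjusted threshold as higher (5.88%) and 1 as lower, near the shares over all genes. Erap1, which trims peptides in the endoplasmic reticulum, was at 16.02, 12.99, 12.9 and 15.5 CPM in libraries 3, 4, 7 and 11, and at 9.66, 10.3, 10.99 and 11.2 CPM in libraries 5, 9, 10 and 16, without overlap. Its log2 fold change of 0.45 had the smallest p of the 99 genes (standard error 0.11, unadjusted p = 0.000844, adjusted p = 0.241, edgeR's quasi-likelihood test). DESeq2 gave adjusted p-values of 0.0261 for Erap1 and 0.0431 for Pml, and over the other settings and leave-one-out fits they ran up to 0.727. Calr, the chaperone calreticulin of the loading complex and of much other folding, was at 374, 320, 347 and 327 CPM against 522, 350, 401 and 483 CPM, with a log2 fold change of -0.36 (unadjusted p = 0.00156, adjusted p = 0.263, edgeR's quasi-likelihood test). The other 15 genes of this list passed in neither direction.

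MHC class II genes, carried by specialised antigen-presenting cells, gave 3 of 7 as higher (42.9%, beside 4.82% of all tested genes). Their median log2 fold change was 0.73, and groups overlapped for all 7. A mean count of at least 10 was reached by 6 of them. H2-Ab1 was at 2.88, 1.40, 0.860 and 2.08 CPM in libraries 3, 4, 7 and 11, and at 0.966, 0.771, 0.953 and 0.984 CPM in libraries 5, 9, 10 and 16. H2-Aa had 3.93, 1.43, 1.14 and 3.07 CPM against 1.03, 1.69, 1.09 and 1.81 CPM. Cd74, the invariant chain, had 8.59, 3.11, 3.63 and 5.80 CPM against 3.501, 3.59, 4.37 and 2.70 CPM. In all 3 genes libraries 3 and 11 were the highest and library 7 lay within the sesame oil range, as library 4 did for H2-Aa and Cd74. H2-Ab1 had an unadjusted p of 0.0102 in edgeR, which was 0.0724 without library 3.

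**Figure D4:**
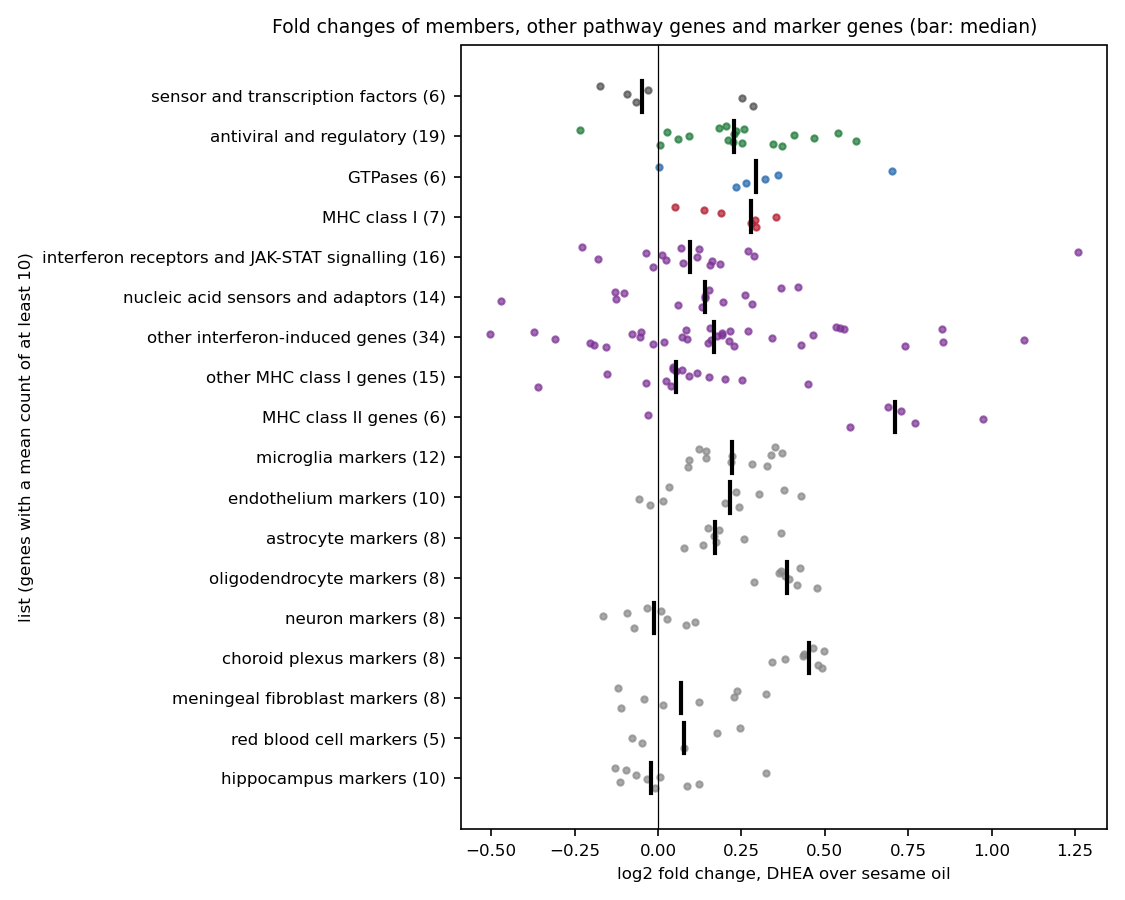
Log2 fold change of each gene (points) whose mean count was 10 or more, libraries labelled DHEA over those labelled sesame oil, for the members by role, for other pathway lists and for cell type markers. Black bars are medians and numbers in brackets are genes. The MHC class II and choroid plexus lists have the highest medians, and the neuron and hippocampus markers lie around 0.

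Markers of several cell types moved with the groups as well. In bulk tissue, more cells of a type and more RNA per cell cannot be told apart. At an unadjusted p under 0.05 in the edgeR test, 5 of 12 microglia markers were higher and 0 lower, with a median log2 fold change of 0.22. Endothelial markers gave 5 of 10 (median 0.22), astrocyte markers 5 of 8 (median 0.17) and oligodendrocyte markers 8 of 8 (median 0.39). Neuron markers gave 0 of 8 as higher and 1 as lower, Rbfox3, with a median of -0.01. Leukocyte, choroid plexus, meningeal fibroblast and red blood cell markers gave 0 in either direction, with medians of 0.14, 0.45, 0.07 and 0.08. Hippocampal markers gave 1 of 10 as higher, Spink8, with a median of -0.02. Beside these counts, 4.82% of all tested genes passed as higher and 4.49% as lower. Among the 16813 genes whose mean count was 10 or more, the shares were 6.85% and 6.26%.

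Summed over the list, the members were at 445, 381, 364 and 403 CPM in libraries 3, 4, 7 and 11, and at 324, 361, 354 and 343 CPM in libraries 5, 9, 10 and 16. Microglia markers summed to 467, 550, 434 and 412 CPM against 366, 436, 407 and 394 CPM. Endothelial markers, led by Slc2a1, summed to 444, 483, 399 and 479 CPM against 397, 411, 381 and 398 CPM. The order of the libraries labelled DHEA differed, since library 4 was the highest for both marker lists and library 3 for the members. Among those labelled sesame oil, members and microglia markers had the same order, from library 9 through 10 and 16 down to 5. Endothelial markers had another order there. Whether cell content underlies these orders was not tested. The ratio of the group means was 1.15 for the members, 1.16 for microglia, 1.14 for endothelium, 1.13 for astrocytes, 1.32 for oligodendrocytes and 1.002 for neurons.

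**Figure D5:**
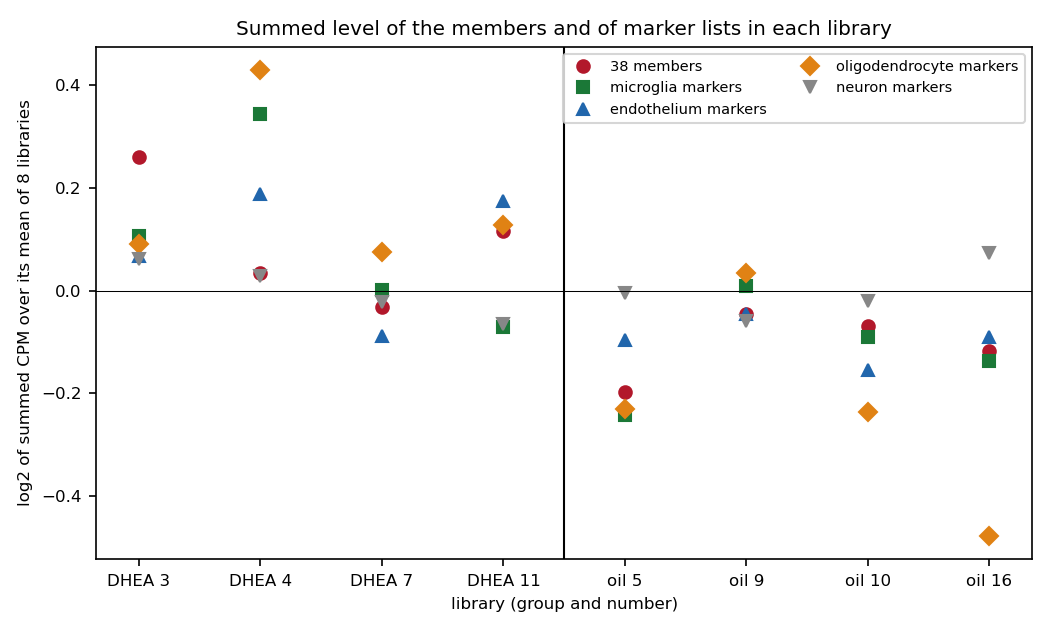
Summed CPM of the 38 members and of 4 marker lists in each library, as log2 of the sum over its mean in the 8 libraries (DHEA on the left). The members peak in library 3, at 445 CPM, whereas microglia and oligodendrocyte markers peak in library 4.

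Oligodendrocyte markers summed to 6387, 8075, 6316 and 6551 CPM in libraries 3, 4, 7 and 11, and to 5111, 6145, 5090 and 4309 CPM in libraries 5, 9, 10 and 16. Astrocyte markers, led by Slc1a2 at 291 FPKM, summed to 6087 to 7264 CPM against 5358 to 6183 CPM, and neuron markers, led by Snap25 at 715 FPKM, to 7059 to 7700 CPM against 7089 to 7765 CPM. Only the oligodendrocyte list had groups that did not overlap among these 3. Leukocyte markers summed to 1.89 to 4.74 CPM against 1.78 to 4.29 CPM, and 8 of the 14 had 0 counts in at least 1 library.

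Levels of a choroid plexus gene differed widely between single libraries. Ttr, the main transcript of choroid plexus, was at 4015, 60.4, 1963 and 3748 CPM in libraries 3, 4, 7 and 11, and at 2834, 433, 1809 and 2013 CPM in libraries 5, 9, 10 and 16. Meningeal fibroblast markers, led by Igf2, summed to 590, 259, 253 and 422 CPM against 375, 280, 340 and 386 CPM. Red blood cell markers, led by Hbb-bs, summed to 159, 148, 45.7 and 105 CPM against 52.5, 93.3, 137 and 137 CPM. Library 3, the highest for 21 members, was also the highest for Ttr and for both of these lists, and library 11 was next for Ttr and the meningeal list. The part of these cell types and tissues in the members' values was not tested.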

How the data were processed

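Paired-end RNA-seq was made from hippocampal RNA of 8 mice, 4 per group, grouped by the treatment label. Per the labels, the authors used fastp, while the study's methods name FastQC before removal of low-quality reads. They aligned reads with HISAT2 to GRCm39 (versions not given in the sources used here) and counted them with HTSeq. They deposited raw counts per gene and FPKM values. Dividing each count by its FPKM and library total gave 1 length per gene (within 0.1% for 25234 of 25234 genes with at least 2 nonzero libraries). Whether counting used strand was not given in the sources used here.

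Counts were tested with edgeR's quasi-likelihood test (edgeR 4.0.16 in R 4.3.3, TMM, genes with at least 1 count in all, prior count 0.125, Benjamini-Hochberg adjustment over 27612 genes). Levels between genes are FPKM. Single values were compared by two-sided exact permutation over the 70 allocations of 8 libraries. The tests were checked on simulated data. Libraries of a group differed by more than sampling noise (chi-square over its degrees of freedom 7.82 to 57.3). Alternatives were DESeq2 1.42.0, RLE factors, 2 filters, another prior count, robust moderation, limma-trend (limma 3.58.1) on log2(FPKM + 1) and log2(FPKM + 0.1), and each library left out. Removal of the GC trend (lowess, span 0.3, GENCODE vM21 transcripts, all 38 members and 77.2% of tested genes matched) was chosen after seeing the data. The members and lists were chosen with earlier results of these data known. Genes named in full were the members and other pathway genes with the smallest unadjusted p under 0.05, and the most abundant member of each role. Others were named for their place in the pathway, with their values known. Values of some single genes are not reported here.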

Additional observations from a re-analysis of the deposited data

Results flagged for a closer look

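In 7 of 102 groups of 4 libraries examined, 1 library lay apart from the other 3, with a gap to the nearest over 0.829 of the group's range, where chance gives about 5.1. Library 11, labelled DHEA, had 7.45 CPM of Irf1 against 6.06 to 6.19 in the other 3 (ratio 0.904) and 19.8 CPM of Cmpk2 against 22.8 to 23.1 (ratio 0.89). Library 16, labelled sesame oil, had 9.01 CPM of Irf9 against 9.63 to 9.69 (ratio 0.904) and 2.73 CPM of Bst2 against 3.23 to 3.32 (ratio 0.85). Library 9, labelled sesame oil, had 2.49 CPM of Psmb8 against 1.63 to 1.71 (ratio 0.899) and 0.771 CPM of H2-Ab1 against 0.953 to 0.984 (ratio 0.856). Library 10, labelled sesame oil, had 15.1 CPM of Pml against 13.2 to 13.3 (ratio 0.943). The cause was not tested in any of the 7.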

How the results depend on the processing

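With DESeq2, RLE factors, both filters, the larger prior count, robust moderation and GC trend removal, 7 or 8 members had an unadjusted p under 0.05 as higher. The share of all tested genes that passed as higher in these settings ran from 3.93% (DESeq2) to 5.91% (the filter that kept 16861 genes). As lower it ran from 4.19% (robust moderation) to 6.58% (the same filter). Limma-trend gave 6 with a pseudocount of 1 FPKM and 4 with 0.1 FPKM, and the cause was not tested. Over all tested genes, limma-trend with 1 FPKM passed 3.82% as higher and 5.61% as lower, beside 4.82% and 4.49% in edgeR. With 0.1 FPKM these shares were 3.82% and 5.62%. Over all these settings 0 members had an adjusted p under 0.05 or met the study's thresholds, and the median log2 fold change of the members was 0.12 to 0.23. B2m, Eif2ak2 and Iigp1 kept an unadjusted p under 0.05 in all 9. Limma-trend with 1 FPKM gave smaller log2 fold changes, since the pseudocount shrinks those of low genes, at 0.27 for Iigp1, 0.22 for Eif2ak2, 0.15 for Parp14, 0.17 for Gbp7, 0.33 for Ifi47, 0.45 for H2-Ab1, 0.28 for Erap1, 0.25 for Trim21, 0.20 for Trim30a and -0.22 for Pml. H2-K1, H2-D1 and Ifitm3 lost it under both limma-trend fits, and Parp14 and Gbp7 under that with 0.1 FPKM. The log2 fold change of Irgm1 turned to -0.0053 with DESeq2, -0.0052 with RLE, -0.0063 and -0.0078 with the filters, -0.021 and -0.029 with limma-trend and -0.030 without the GC trend, and was -0.074 to 0.092 with a library left out.

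With each library left out in turn, members with an unadjusted p under 0.05 numbered 3 to 10 as higher and 0 to 1 as lower (Stat2, without library 7 or 11), beside 3.31% to 6.51% and 3.23% to 6.94% of all tested genes, and 0 to 1 had an adjusted p under 0.05 (B2m, without library 7). Members with a fold change above 1 numbered 27 to 33, with medians of 0.15 to 0.27. Groups did not overlap for 7 to 11 members as higher (11 without library 11) and 0 to 1 as lower (1 without library 3 or 9), where 3.25% to 5.27% and 3.73% to 5.38% of all tested genes did so in these fits. Other pathway genes numbered 4 to 18 as higher and 2 to 5 as lower (5 without 11). No paired analysis was possible because the labels give no pairs of mice. Psmb9, the member with the lowest mean count (26.9), had 6 counts in library 16 and a standard error of 0.45. The part of depth in this was not tested.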
